A study of Mus musculus and Homo sapiens
Mus musculus with 12 samples.

Results

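Axon guidance ligands and receptors were followed across nuclei of mouse brain. The genes were every symbol of the 7 brain count tables that belongs to the class 3 to 7 semaphorins, the plexins, the neuropilins, the Eph receptors, the ephrins, the Slits, the Robos or the Unc5 receptors, and 64 of the 34496 listed symbols met this rule. They comprised 20 semaphorins, 11 plexins and neuropilins, 14 Eph receptors, 8 ephrins, 7 Slits and Robos and 4 Unc5 receptors. The study compared stored and unstored tissue, and reverse transcription with and without a preindex. The preindex is a well-specific barcode carried by the primer that lets many samples share a droplet run. The brains were those of young adult male C57BL/6J mice, and nuclei of all groups were fixed in paraformaldehyde and primed with random primers. There were 2 libraries of frozen brain without the preindex, 2 of frozen brain with it, 2 of fresh brain without it and 1 of fresh brain with it. The titles and the treatment labels disagreed on the preindex for 4 libraries, so the titles were used, and the barcodes were 40 bases long in the 3 libraries titled as indexed and 30 bases in the other 4. No label says that the libraries came from separate mice, so p-values below measure only the spread between libraries.

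Guidance cues steer growing axons by attraction or repulsion. Secreted or membrane-bound semaphorins act through plexins, with neuropilins as co-receptors for most class 3 members. Ephrins are bound to the cell surface and bind Eph receptor tyrosine kinases on the neighbouring cell, with signals in both directions. Slits are secreted repellents read by Robos, and the Unc5 family are netrin receptors that mediate repulsion. Many of these genes remain transcribed in the adult brain, where they are known for roles at synapses, in myelin and in vessels.

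The libraries held 700 to 3100 nuclei each (11198 in all) and 8605214 to 42439731 unique fragment identifiers (UFIs), the count of distinct captured RNA fragments. Barcodes shared between libraries numbered at most 10 in any pair. Clustering with the 64 genes left out gave 25 clusters, of which 24 held at least 50 nuclei, and 19 were neuron-like with 9896 nuclei together. Clusters are called by their markers with the ending "-like", or by their leading genes where no named class was met. A kidney tubule-like cluster of 481 nuclei came only from the frozen preindexed libraries (268 nuclei, 11.7%, and 213 nuclei, 10.7%). A cerebellar neuron-like cluster, named for granule neurons in the plots but mixed, with Purkinje markers and the Purkinje gene Car8 beside the granule genes Cbln3, Fat2 and Gabra6, numbered 39, 51, 88 and 102 nuclei in the libraries without the preindex and 0 in the 3 preindexed libraries. The somatostatin interneuron-like cluster (635 nuclei) also met all 6 markers of a list for Lhx6 interneurons, Pvalb among them, so it may be mixed. An unnamed cluster of 89 nuclei with hepatocyte and microglia markers occurred in all 7 libraries.

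Levels are given as CPM, the UFIs of a gene per 1000000 UFIs of a kind of nuclei in a library, as the mean ± SD over the libraries with at least 10 nuclei of that kind, with no test. Counts covered whole genes with introns, so levels of different genes are compared only per kilobase of gene span. Of the 64 genes, 37 had their highest mean level in a neuron-like kind. Among the genes tested by library this was 58.7% of the guidance genes and 45.6% of all 19299 genes. Hippocampal pyramidal neuron-like nuclei led for 4 members (6.35% of members tested, 0.969% of all genes) and the neuron-like cluster led by Chat for 7 (11.1% and 8.17%). OPC-like nuclei led for 4 (6.35% and 3.67%) and oligodendrocyte-like nuclei for 4 (6.35% and 4.06%). Vascular-like nuclei led for 6, of which 5 were tested (7.94% and 10.2%). In 12 genes the libraries of the leading kind lay wholly above those of the next kind, and 8 of these led in neuron-like kinds. For Nrp2, Robo1, Robo3, Plxnb2 and Sema4b the leading kind had only 2 libraries, where ranges separate easily. No share of all genes is given beside this count, so it is a description only. Highest per kilobase over all nuclei, within each role, were Slit3 at 2.28, Efnb3 at 2.21, Epha4 at 2.04, Plxna4 at 2.02, Unc5c at 1.87 and Sema7a at 1.84 CPM per kb. Neuronal RNA was also present in glial kinds: the vesicular glutamate transporters Slc17a6, Slc17a7 and Slc17a8 together reached 118 CPM in oligodendrocyte-like nuclei, 216 in Rorb cortical excitatory neuron-like nuclei and 2.02 in kidney tubule-like nuclei. The part of free RNA or doublets in the glial levels was not tested.

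**Figure D1:**
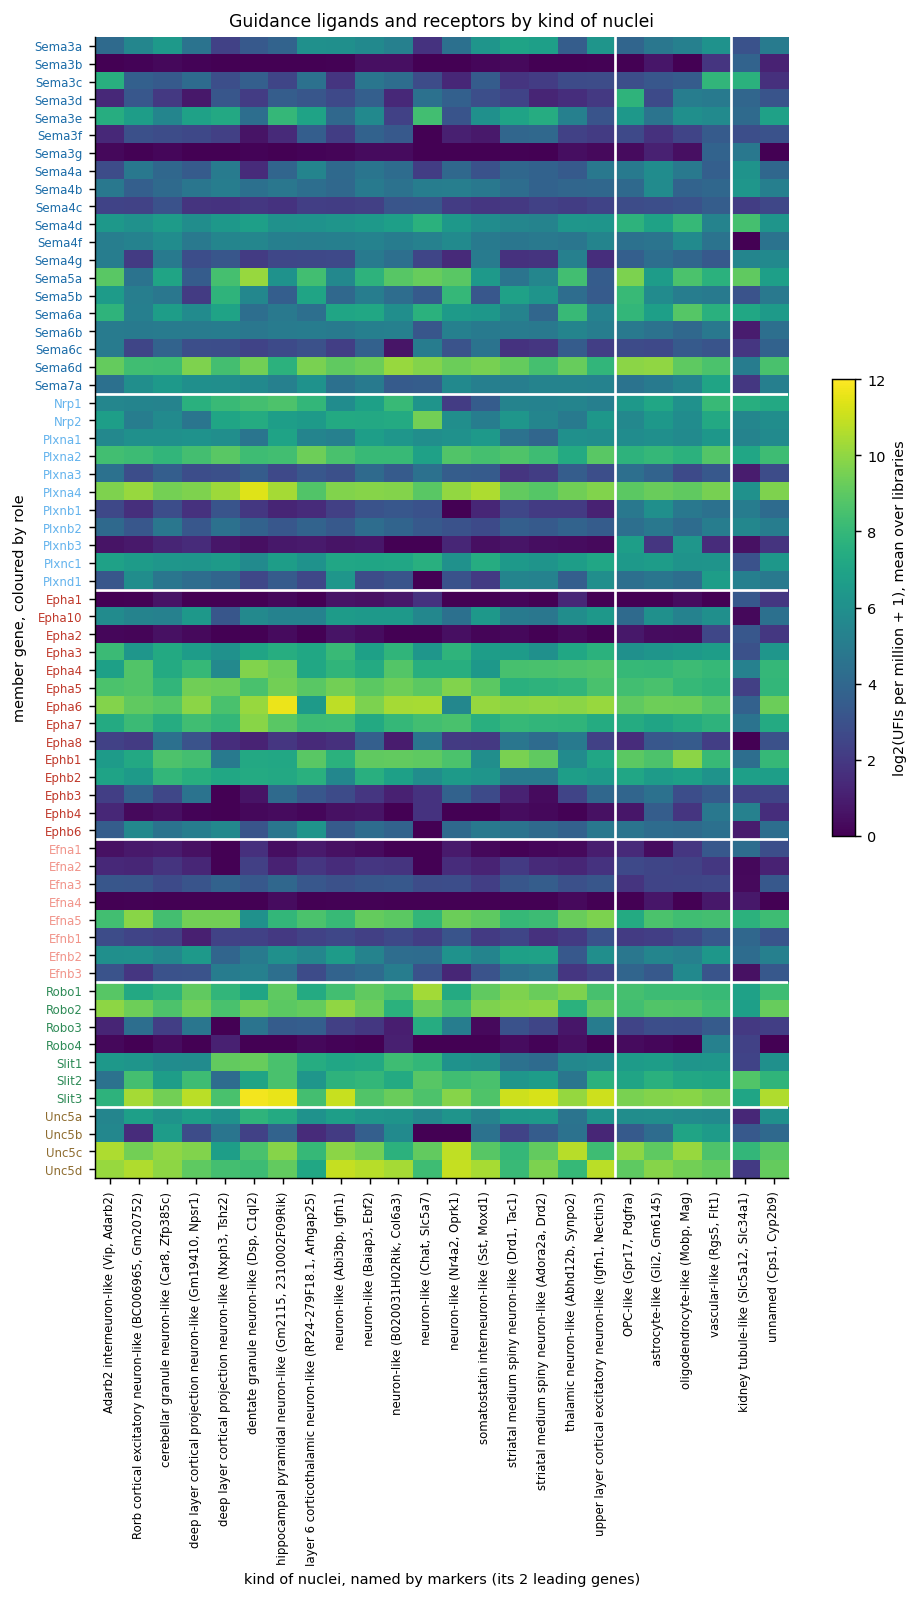
Level of each of the 64 genes (rows, coloured by role) in each of 24 kinds of nuclei (columns: neuron-like, then glial and vascular, then kidney tubule-like and unnamed), as log2 of the mean CPM over libraries plus 1. Most rows are brightest among the neuron-like columns (37 of 64), while Plxnb3, Sema3d and Robo4 are brightest in glial or vascular columns and 11 rows are highest in the kidney tubule-like column.

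The dentate granule neuron-like nuclei led for 7 members, drawn from the Slits, the plexins, the semaphorins, the Eph receptors and the Unc5 receptors (11.1% of members tested, 3.18% of all genes). Slit3 (GRCm38, chr11:35121224-35708507, plus strand), a secreted repellent, ranged from 2603 to 4235 CPM over the 7 libraries with a median of 3810 in these nuclei (3555 ± 568). The hippocampal pyramidal neuron-like nuclei came next for Slit3 (3108 ± 294), and both ranges overlapped. Striatal medium spiny neuron-like nuclei followed at 2439 ± 343 (Adora2a, Drd2) and 2187 ± 224 (Drd1, Tac1), and the kidney tubule-like nuclei were lowest at 133 ± 14.1 (n = 2). Slit1, another Slit, stood at 598 ± 85.0 in dentate granule neuron-like nuclei and at 553 ± 48.8 (n = 4) in the deep layer cortical neuron-like nuclei led by Nxph3 and Tshz2, also with overlapping ranges. Robo receptors had other leaders. Robo2 was close to equal in the neuron-like nuclei led by Abi3bp (1032 ± 105) and in the Adarb2 interneuron-like nuclei (1012 ± 112). Robo1 reached 1308 ± 163 in the 2 libraries with enough nuclei of the small neuron-like cluster led by Chat, above every library of the thalamic neuron-like nuclei that came next (832 ± 121, n = 7). Robo3 was 94.7 and 251 in the same 2 libraries, 18.6 times the mean of the other kinds. The neuron-like cluster led by Nr4a2 came next for Robo3 (33.0 ± 8.75, n = 4).

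Among the semaphorin receptors, Plxna4 (chr6:32144268-32588192, minus strand), a receptor for class 3 and class 6 semaphorins, set dentate granule neuron-like nuclei most clearly apart. It ranged there from 2190 to 3272 CPM with a median of 2768. The next kind, somatostatin interneuron-like nuclei, ranged from 1346 to 1512, so no library of one kind reached the other. Plxna2 was highest in layer 6 corticothalamic neuron-like nuclei (571 to 745, median 652), above all libraries of the upper layer cortical neuron-like nuclei (357 to 530). Nrp1, the neuropilin for Sema3a, was highest in hippocampal pyramidal neuron-like nuclei at 401 ± 39.9 and lowest, at 3.43 ± 3.22 (n = 4), in the neuron-like cluster led by Nr4a2. Nrp2 was 702 ± 210 in the 2 libraries of the Chat-led nuclei, and the dentate granule neuron-like nuclei came next at 164 ± 27.3. Plxna1 was 125 ± 21.1 in hippocampal pyramidal neuron-like nuclei. Plxnd1, a receptor for Sema3e, was 77.9 ± 14.2 in the Abi3bp-led nuclei, 59.5 ± 10.8 in upper layer and 57.9 ± 9.13 in Rorb cortical excitatory neuron-like nuclei, with a higher mean but a wide range in vascular-like nuclei (102 ± 57.3, n = 6).

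Semaphorins led in many kinds. Sema5a was highest in dentate granule neuron-like nuclei (1058 to 1211, median 1172) and lowest in upper layer cortical neuron-like nuclei (10.1 ± 3.03), with OPC-like nuclei second (792 ± 261). Both striatal medium spiny neuron-like clusters led for Sema3a, at 122 ± 26.5 (Drd1) and 109 ± 22.9 (Drd2), and for Sema3f, at 14.6 ± 4.81 and 15.5 ± 3.24, and the members of each pair did not differ beyond their spread. Sema3e was 331 ± 25.7 in the Chat-led nuclei (n = 2) and 251 ± 47.3 in hippocampal pyramidal neuron-like nuclei. Sema3c was 188 ± 42.2 in Adarb2 interneuron-like nuclei, 239 ± 153 in vascular-like nuclei and 205 ± 26.8 in kidney tubule-like nuclei. Sema6c, among interneurons, was 30.5 ± 11.5 in Adarb2 and 22.6 ± 3.88 in somatostatin interneuron-like nuclei. Sema5b was close to equal in OPC-like (273 ± 80.3) and Nr4a2-led nuclei (256 ± 17.2), followed by Tshz2-led deep layer nuclei (226 ± 66.6). Sema6d led in the neuron-like nuclei marked by Col6a3 (1141 ± 249, n = 5), with astrocyte-like nuclei at 1019 ± 144. Sema6b and Sema4f had weak leaders, at 1.56 times the mean of the other kinds in thalamic neuron-like nuclei and 1.71 times in cerebellar neuron-like nuclei.

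**Figure D2:**
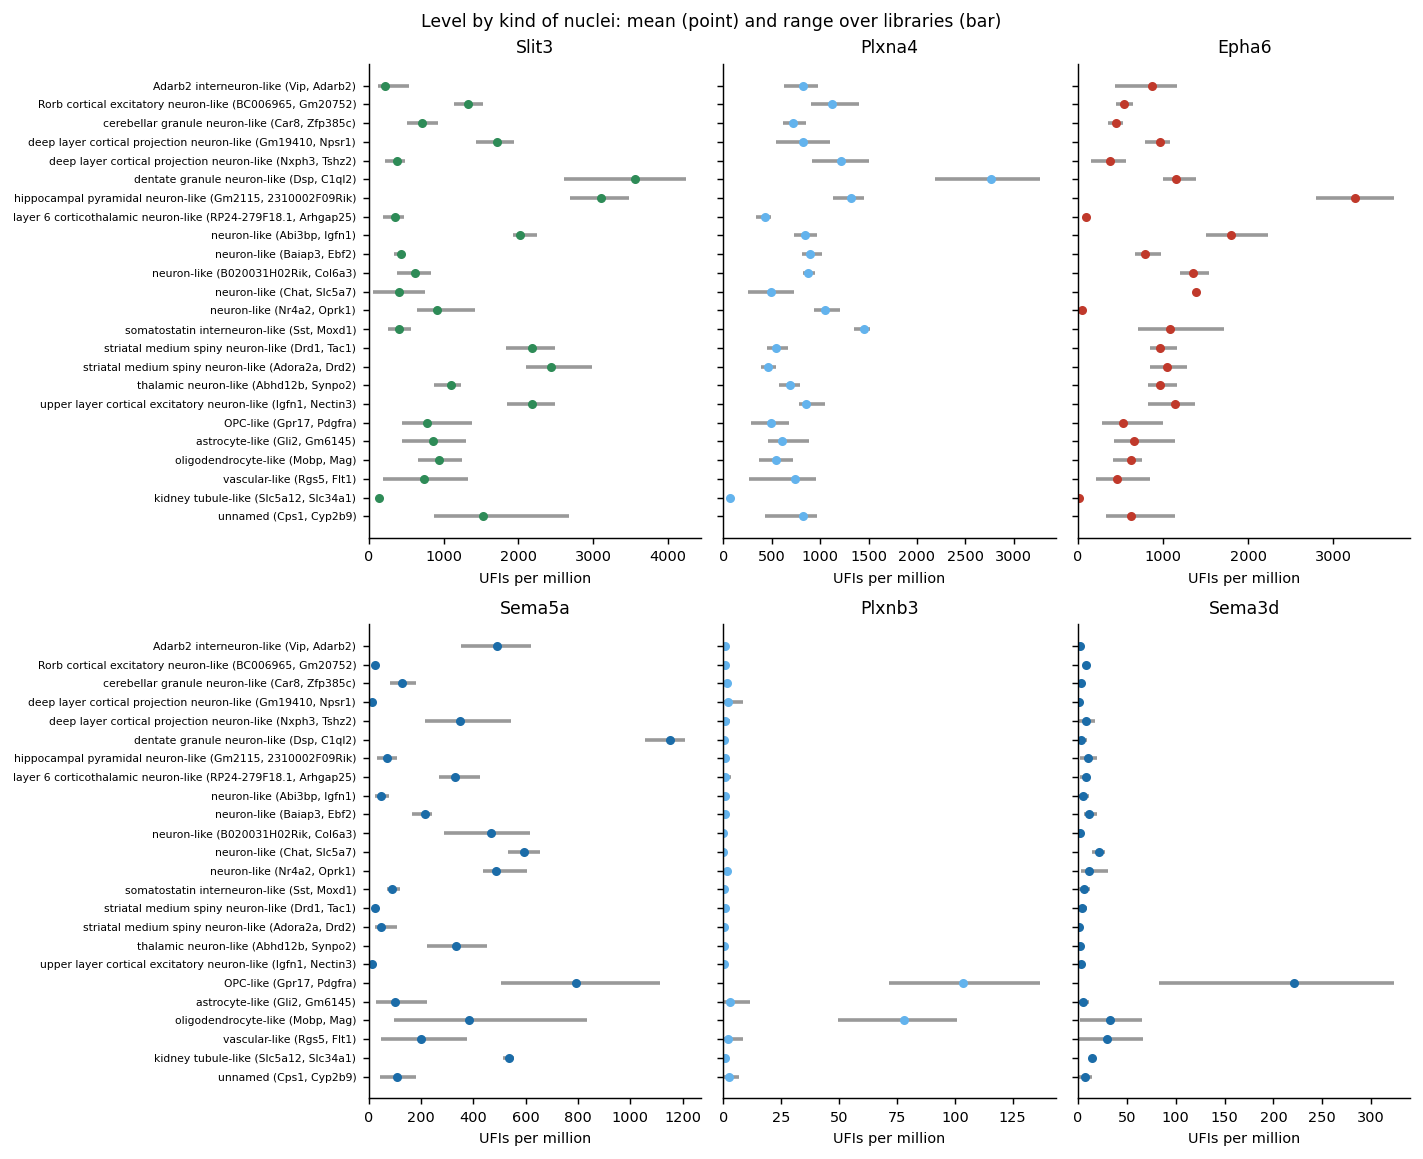
Mean level (point) and range over libraries (grey bar) in CPM of 6 genes in each of 24 kinds of nuclei. Plxna4 in dentate granule neuron-like nuclei (2190 to 3272) and Epha6 in hippocampal pyramidal neuron-like nuclei (2802 to 3718) clear the next kind, Slit3 does not, and Plxnb3 and Sema3d stand out in OPC-like nuclei.

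Of the Eph receptors, Epha6 (chr16:59653483-60605531, minus strand) ranged from 2802 to 3718 CPM with a median of 3215 in hippocampal pyramidal neuron-like nuclei, and no library of the Abi3bp-led nuclei, the next kind, exceeded 2238. The kidney tubule-like nuclei held 12.3 ± 1.24 (n = 2). Epha7 was highest in dentate granule neuron-like nuclei (685 to 1080, median 947), above the hippocampal pyramidal neuron-like nuclei (348 to 646). Epha4 had the same order, 850 ± 133 and 632 ± 92.9, but with overlapping ranges. Epha8 was highest in thalamic (29.9 ± 11), Drd1 striatal (25.0 ± 4.08) and cerebellar neuron-like nuclei (20.9 ± 5.12, n = 4). Ephb6, which lacks kinase activity, was 73.5 ± 22.1 in layer 6 corticothalamic neuron-like nuclei and 47.3 ± 9.48 in Rorb cortical nuclei. Ephb2 was 249 ± 32.4 in cerebellar neuron-like nuclei (n = 4). Ephb1 was 766 ± 97.6 in Drd1 striatal neuron-like nuclei, and its highest mean, 972 ± 555 in oligodendrocyte-like nuclei, came with a range of 509 to 2123. Ephb3 was 22.5 ± 3.83 in the Npsr1-led deep layer nuclei and 21.3 ± 7.26 in astrocyte-like nuclei. Epha3 was 292 ± 73.5 in Adarb2 interneuron-like and 279 ± 48.4 in Abi3bp-led nuclei, and Epha10 was 95.1 ± 20.9 in the latter.

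Efna5 (chr17:62604184-62881317, minus strand), a ligand for several EphA receptors, was highest in Rorb cortical excitatory neuron-like nuclei (753 to 1040, median 1004), next in upper layer cortical neuron-like nuclei (785 ± 99.4), and lowest of all kinds in dentate granule neuron-like nuclei (67.1 ± 30.5), which led for Epha4 and Epha7. Efnb2 was highest in both striatal clusters (116 ± 16.5 and 113 ± 17.4). Efnb3 led in oligodendrocyte-like nuclei (51.3 ± 11.3), with dentate granule neuron-like nuclei at 37.0 ± 14.5. Efna4 had 12 UFIs in all and was not tested.

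Among the Unc5 receptors, Unc5d was nearly the same in the Nr4a2-led (1973 ± 150, n = 4) and Abi3bp-led nuclei (1946 ± 232), followed by upper layer cortical neuron-like nuclei (1714 ± 440) and the large neuron-like cluster led by Baiap3 and Ebf2 (1657 ± 327). Unc5c was 1832 ± 255 in the Nr4a2-led nuclei and 1683 ± 301 in thalamic neuron-like nuclei. Unc5a was 224 ± 17.4 in dentate granule neuron-like nuclei (198 to 249), above all libraries of hippocampal pyramidal neuron-like nuclei (139 to 193). Unc5b (chr10:60762593-60831581, minus strand) was highest outside neurons, at 126 ± 41.3 in oligodendrocyte-like nuclei, with cerebellar neuron-like nuclei at 98.0 ± 34.3 (n = 4).

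Other members led outside the neuron-like kinds. Sema3d (chr5:12383385-12588948, plus strand) in OPC-like nuclei ranged from 83.0 to 324 CPM with a median of 214, which was 25.1 times the mean of the other kinds. Plxnb3 (chrX:73757090-73772514, plus strand), the plexin that binds Sema5a, was 103 ± 24.2 in OPC-like and 77.9 ± 18.2 in oligodendrocyte-like nuclei, with overlapping ranges, and at most a few CPM elsewhere. Sema6a was 454 ± 241 in oligodendrocyte-like nuclei and 268 ± 69.0 in thalamic neuron-like nuclei, with overlapping ranges. Plxnb1, a receptor for Sema4d, was 62.3 ± 20.9 in astrocyte-like nuclei (29.2 to 90.9), and Sema4a was 55.5 ± 18.6 there. Robo4, the Robo of endothelial cells, was 37.3 ± 23.7 in vascular-like nuclei (n = 6), 104 times the mean of the other kinds, with a range of 11.6 to 69.6 from 102 nuclei. Ephb4 was 27.1 ± 15.6 in vascular-like and 37.7 ± 4.91 in kidney tubule-like nuclei, but it overlaps the counted gene Zan on the opposite strand, and the strand setting of the counting is not given in the sources used here. The same caution holds for Epha1, Efna4 and Sema4c. Kidney tubule-like nuclei led for 11 members (17.5% of members tested, 26.0% of all genes), among them Sema3g at 27.3 ± 0.98 and Sema4d at 356 ± 37.7 (n = 2). In the unnamed cluster Sema4g averaged 50.9 with a range of 8.54 to 202 over 5 libraries. Small or mixed clusters limit these values: those led by Chat and Nr4a2 held 58 and 100 nuclei.

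The primer comparison set the 3 preindexed libraries against the 4 others, with storage in the model, on UFIs summed over the neuron-like nuclei of each library. In these nuclei 30 of the 59 members tested changed, 20 being higher and 10 lower with the preindex, where 20.9% of all 18194 genes changed (11.1% higher, 9.84% lower). Calls are those of edgeR's quasi-likelihood test at a Benjamini-Hochberg adjusted p under 0.05 over all genes tested. The median log2 fold change was 0.14 over the members and -0.04 over all genes. This direction depended on the scaling: relative to total UFIs in place of trimmed means (an alternative chosen after the data were seen) the all-gene median moved to -0.19 and that of the members to -0.01. Under that scaling 18 members passed, 5 higher and 13 lower, where 25.9% of all genes passed. None of the 30 members called with trimmed means changed sign with the scaling, though the median of all members did. Cerebellar neuron-like nuclei, absent from the preindexed libraries, are in these sums, and without them 23 members passed, 22 of them the same. No share of all genes is given beside that count. Other kinds differed too: the Col6a3-marked cluster held 0 and 0 nuclei in frozen libraries without the preindex and 16 to 42 elsewhere. Rorb cortical nuclei were 7.86% and 6.63% of nuclei in those libraries and 10.3% to 12.8% in the others. Fewer cells of a kind and less RNA per cell thus cannot be told apart in these sums. For all neuron-like nuclei together, the part of this mix beyond the cerebellar nuclei was not tested.

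Slits and Robos rose in 3 of 6 and fell in none. Slit3 was 1549 CPM in the fresh preindexed library and 1546 and 1542 in the frozen ones, against 1366 and 1254 in fresh and 1282 and 1295 in frozen libraries without the preindex. Every preindexed library lay above the others, and the log2 fold change was 0.40 ± 0.04 (SE; adjusted p = 0.000242, edgeR). Robo1 was 445, 452 and 482 with the preindex and 374 to 432 without (log2 fold change 0.32 ± 0.05, edgeR adjusted p = 0.00245). Robo2 rose by the same measure with 0.29 ± 0.05. Robo1 lost its call under scaling by total UFIs, and Slit3 and Robo2 lost theirs in the fit within Rorb cortical excitatory neuron-like nuclei.

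**Figure D3:**
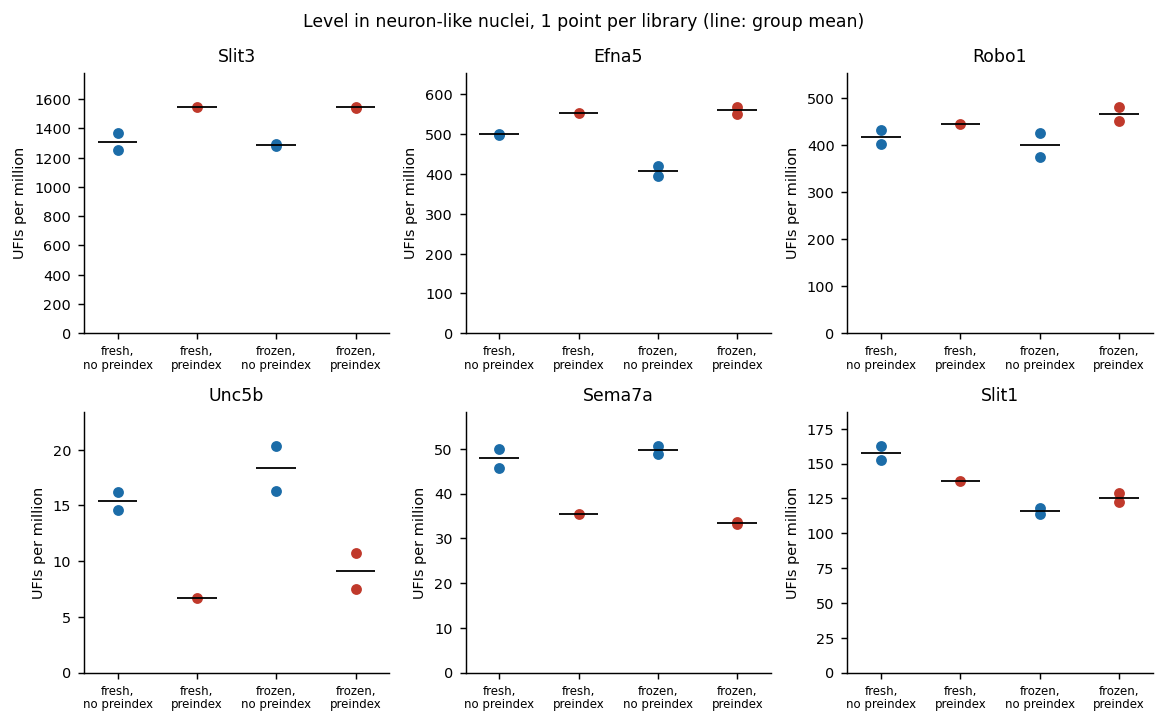
CPM in neuron-like nuclei for 6 genes, with 1 point per library in the 4 groups (blue without and red with the preindex) and a line at each group mean. Slit3 and Efna5 are higher and Unc5b and Sema7a lower in every preindexed library, while Slit1 separates frozen from fresh libraries.

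The ephrin Efna5 showed the same shift. Its level was 554 in the fresh and 570 and 552 in the frozen preindexed libraries, against 501 and 498 in fresh and 395 and 420 in frozen libraries without the preindex. No group overlapped (log2 fold change 0.48 ± 0.06, edgeR adjusted p = 0.000368). Among the Eph receptors 6 of 13 rose and 1 fell: Epha6 rose by 0.32 ± 0.05, with preindexed libraries at 1087 to 1147 and the others at 890 to 1076, and Epha3, Epha4, Epha5, Epha7 and Ephb1 rose by between 0.19 and 0.25. In Epha3, Epha4, Epha5 and Epha7 the libraries of both groups overlapped, and in Ephb1 they did not. Epha8 was 6.54 to 7.38 with and 8.94 to 12.6 without the preindex and fell by 0.49 on the log2 scale. Without the cerebellar neuron-like nuclei the log2 fold change of Epha8 was -0.33. Plexins and neuropilins split, 5 of 11 rising (Plxnc1 by 0.40 ± 0.07, Nrp2, Nrp1, Plxna2 and Plxna4) and 4 falling. The mean level of Plxna4 was 941 CPM with and 942 CPM without the preindex, with overlapping libraries, and its call was lost under scaling by total UFIs. Plxna1 was 50.8 to 55.2 with and 64.3 to 80.2 without the preindex, with no overlap (log2 fold change -0.31 ± 0.05, edgeR adjusted p = 0.00244). Plxnb2, at 8.66 to 9.44 against 13.5 to 16.4, also fell without overlap, as did Plxna3. Plxnb3 had the largest fold change of the called members, -1.39 ± 0.42, on few UFIs. In the 1 kind of nuclei fitted alone where Plxnb3 was tested, its log2 fold change was 0.64 and not called. Among the kinds fitted alone, Plxnb3 was highest in oligodendrocyte-like nuclei (77.9 CPM), and its median over kinds was 0.66 CPM. That 0.64 may be a glial value, and the part of glial RNA in the neuron-like Plxnb3 counts was not tested.

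Of 18 semaphorins tested, 3 rose and 4 fell. Sema7a, a membrane-anchored semaphorin, was 33.2 to 35.3 with and 45.8 to 50.7 without the preindex (log2 fold change -0.37 ± 0.06, edgeR adjusted p = 0.00221). Cerebellar neuron-like nuclei, absent from the preindexed libraries, were second highest for Sema7a (87.5 ± 7.36, n = 4). Leaving them out moved its log2 fold change to -0.24, that of Plxna1 from -0.31 to -0.34 and that of Sema6b from -0.37 to -0.39. Sema4g was 8.95 to 10.2 with and 16.0 to 18.1 without (log2 fold change -0.64 ± 0.09). Sema6b and Sema4f also fell, and Sema3d, Sema3e and Sema3a rose by 0.56, 0.32 and 0.21. After Plxnb3 the largest change was that of the netrin receptor Unc5b, at 6.74, 10.7 and 7.49 in preindexed libraries and 14.6 to 20.3 in the others (log2 fold change -0.95 ± 0.13, edgeR adjusted p = 0.000614). Unc5b is high in cerebellar neuron-like nuclei, and without those nuclei the log2 fold change was -0.32 and the call was lost (edgeR adjusted p = 0.179). Without them the calls of Epha5, Nrp1, Plxna2, Plxna4, Plxnb3, Sema3d and Sema3e were lost as well, with smaller moves of the log2 fold change: it was then -1.28 for Plxnb3, 0.50 for Sema3d, 0.25 for Sema3e, 0.17 for Epha5, 0.15 for Nrp1, 0.14 for Plxna2 and 0.10 for Plxna4. In the 16 alternatives that keep all kinds of neuron-like nuclei or leave out the cerebellar ones, 11 members kept their calls. Efna5, Epha6, Plxnc1, Robo2 and Slit3 were higher and Epha8, Plxna1, Plxna3, Plxnb2, Sema4g and Sema7a lower. The matching share of all genes is not given, so this count is a description only. Within Rorb cortical excitatory neuron-like nuclei alone, the last of 17 alternatives, Efna5 kept its call and the other 10 did not, with Slit3 at 0.04 (edgeR adjusted p = 0.878). That fit used 1227 nuclei and called 3.2% of all genes, against 20.9% over neuron-like nuclei, so calls were lost among all genes too.

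**Figure D4:**
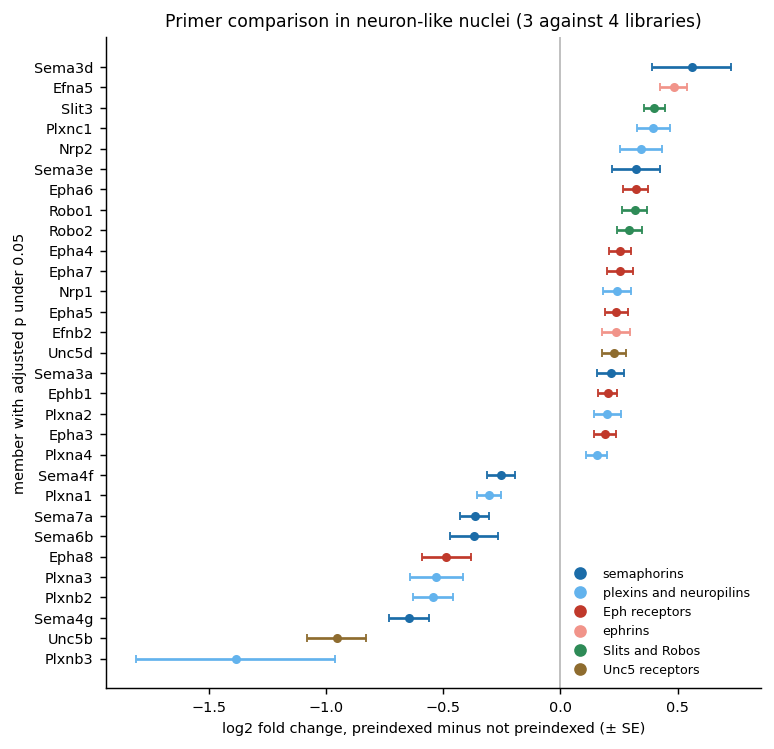
Log2 fold change (point) and standard error (bar) of the 30 guidance genes called in the primer comparison of neuron-like nuclei, preindexed minus not preindexed, coloured by role. The 20 genes on the right range up to Sema3d at 0.56 and the 10 on the left down to Plxnb3 at -1.39, and every role except the ephrins and the Slits and Robos has genes on both sides.

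Members that rose and fell differed in gene length, which neither the rule nor the test used, in ranges of span chosen after the data were seen. Called members that rose spanned 43.8 to 952 kb in GENCODE vM21 (median 299 kb), and those that fell spanned 14.3 to 69.0 kb (median 24.0 kb). Of 23 members shorter than 30 kb, 0 rose and 8 fell. Of 7 members of 30 to 100 kb, 1 rose and 2 fell. Of 15 members of 100 to 300 kb, 9 rose and 0 fell, and of 14 longer ones, 10 rose and 0 fell. All genes leaned the same way: of those under 30 kb 3.87% rose and 12.4% fell, and of those of 30 to 100 kb 11.9% and 7.81%. Of those of 100 to 300 kb 30.9% rose and 6.43% fell, and of those of 300 kb or more 55.8% and 3.91%. These counts are from trimmed-mean scaling, and the numbers of members rising and falling moved with total-UFI scaling. Across genes, which share the same libraries, Spearman's correlation of span with the log2 fold change was 0.67 over 59 members and 0.27 over 17441 genes, given as descriptions. It was 0.39 over the members without the fresh preindexed library, 0.60 to 0.69 without any other library, and 0.16 to 0.63 within each of 11 kinds of nuclei fitted alone. Over all nuclei the correlation was 0.20 over 63 members, and 0.72 without the kidney tubule-like, unnamed and cerebellar neuron-like nuclei.

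**Figure D5:**
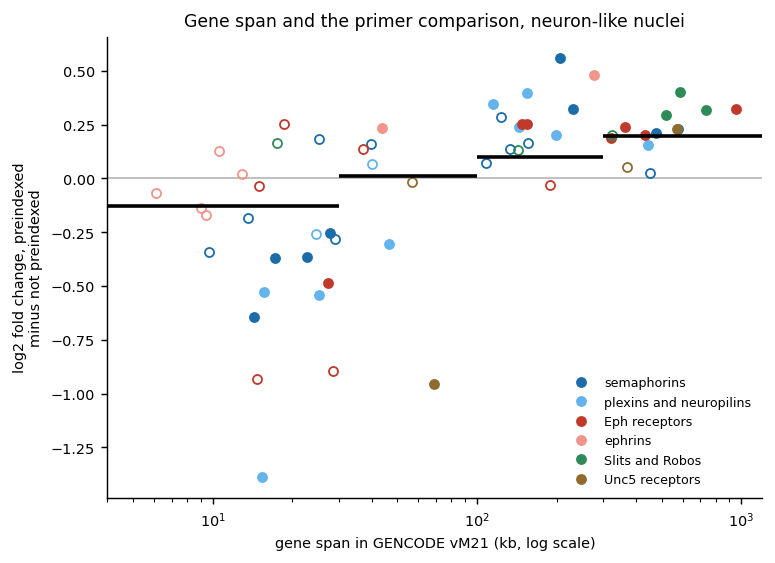
Log2 fold change with the preindex in neuron-like nuclei against gene span (kb, log axis) for 59 guidance genes, coloured by role, filled where called. Black lines give the median of all genes in 4 span ranges, from -0.13 under 30 kb to 0.20 at 300 kb and over, and the guidance genes rise with span alongside them.

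Over all nuclei, too, fewer cells of a type and less RNA per cell cannot be told apart. There 17 of 63 members changed with the preindex, 8 higher and 9 lower, where 15.8% of 19299 genes changed (7.88% in each direction). By total UFIs 15 passed, 4 higher and 11 lower (16.5% of all genes), and DESeq2 called 20, 11 higher and 9 lower (9.21% of all genes). Without the kidney tubule-like, unnamed and cerebellar neuron-like nuclei 24 passed, 14 of them the same, with no share of all genes beside that count. Sema3c, at 32.9 and 29.3 in the frozen preindexed libraries and 13.6 to 21.1 in all others, had the largest rise among called members (log2 fold change 0.73 ± 0.17, edgeR adjusted p = 0.0259). Its level was high in kidney tubule-like nuclei, and without the nuclei just named the log2 fold change was 0.22 (edgeR adjusted p = 0.26). The count of called members moved with single libraries. It was 33 without the fresh preindexed library, 6 without frozen preindexed library 1 and 5 without frozen preindexed library 2. It was 6 without frozen library 2 of those without the preindex. No share of all genes is given beside these counts, so they are descriptions only. Efna5 (0.37 ± 0.04) kept its call in all 15 alternatives, and Plxna1 (-0.38 ± 0.05) in 14, losing it within Rorb cortical excitatory neuron-like nuclei (-0.19, edgeR adjusted p = 0.439).

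Within each of 11 kinds with at least 20 nuclei in every library, fits added after the data were seen called 0 to 5 members for the primer. The most were in Rorb cortical excitatory neuron-like nuclei, where Efna5, Ephb1, Ephb2 and Nrp1 rose and Sema6b fell (5 of 54 members, 3.2% of all genes). In upper layer cortical neuron-like nuclei 4 of 53 passed, Efna5 and Ephb2 higher and Nrp2 and Unc5d lower (3.8%), and in the Adora2a striatal nuclei 4 of 44, Epha7, Ephb1, Robo2 and Slit3, all higher (3.68%). Those of the dentate granule neuron-like nuclei were Epha6, Plxna4 and Slit3 (3 of 41, 3.76%), those of the Abi3bp-led nuclei Epha5, Plxna4 and Sema6a (3 of 52, 1.9%) and those of the Baiap3-led nuclei Efna5, Slit2 and Unc5d (3 of 55, 2.6%), all higher. Efna5 and Ephb1 rose in layer 6 corticothalamic nuclei (2 of 51, 0.669%), and Sema5a and Sema6a in oligodendrocyte-like nuclei (2 of 47, 0.787%). None passed with edgeR in hippocampal pyramidal (0.712%), Drd1 striatal (0.978%) and somatostatin interneuron-like nuclei (0.761%). Efna5 was called in 4 kinds, with log2 fold changes of 0.37 in Rorb, 0.43 in upper layer, 0.75 in layer 6 corticothalamic and 0.61 in Baiap3-led nuclei. The kinds share the 7 libraries, so their values are given side by side only. Over the 11 kinds the log2 fold change of Plxna1 ranged from -1.09 to -0.19, that of Plxnb2 from -1.86 to -0.21, that of Sema6b from -0.86 to -0.15 and that of Robo1 from 0.07 to 0.40. Slit3 ranged from -0.19 to 0.49 and Efna5 from -0.37 to 0.75, so neither held its direction in every kind. Ephb1 ranged from -0.83 in somatostatin interneuron-like to 1.21 in oligodendrocyte-like nuclei, and was called at 1.19 ± 0.18 in layer 6 corticothalamic nuclei (edgeR adjusted p = 0.00273).

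An interaction term of storage and preindex passed in edgeR for 21 of 63 members over all nuclei (16.4% of all genes) and for 11 of 59 in neuron-like nuclei (7.12%). The fresh preindexed group is 1 library, assumed to vary like the other groups, so a difference between frozen and fresh cannot be told apart from a deviation of that library.

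Few members passed for storage. Over all nuclei 1 of 63 passed between the 4 frozen and the 3 fresh libraries, where 0.207% of all genes passed (0.0933% lower in frozen). Of the 63 members, 10 had an unadjusted edgeR p under 0.05, as did 15.0% of all genes. The gene was Slit1 (chr19:41600257-41743665, minus strand), at 114, 110, 113 and 114 CPM in frozen libraries and at 134, 160 and 149 in fresh ones. The groups did not overlap (113 ± 1.81, n = 4, against 148 ± 12.9, n = 3; log2 fold change -0.36 ± 0.05, edgeR adjusted p = 0.0466). The call was lost without any of 6 of the 7 libraries. It was also lost without the kidney tubule-like, unnamed and cerebellar neuron-like nuclei (edgeR adjusted p = 0.164). The log2 fold change of Slit1 stayed below 0 in all 11 kinds fitted alone (-0.60 to -0.04) and was called in 0 of them. That of Robo2 stayed above 0 in all 11 (0.02 to 0.50), also with 0 calls. The kinds share the 7 libraries, so these values are not separate evidence. Next by p were Epha4, at 259 to 287 in frozen and 323 to 337 in fresh libraries (log2 fold change -0.26, edgeR adjusted p = 0.0802), Nrp1, Efna5 and Ephb3, none of which passed. Leaving out the fresh preindexed library raised the count to 13, with no share of all genes beside it, so this is a description only.

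In neuron-like nuclei 0 of 59 members passed for storage with edgeR (0.522% of all genes passed), 18 had an unadjusted p under 0.05 (11.9% of all genes) and DESeq2 called 2, Nrp1 and Slit1 (0.603% of all genes). Nrp1 was 96.2 to 99.0 in frozen and 111 to 132 in fresh libraries, without overlap (log2 fold change -0.29 ± 0.06, edgeR adjusted p = 0.0649), and Slit1 was 114 to 129 against 138 to 163 (-0.29 ± 0.06, edgeR adjusted p = 0.0918). Sema3a was 58.3 to 63.2 in frozen and 49.4 to 55.7 in fresh libraries (0.23 ± 0.06, edgeR adjusted p = 0.137). Epha4 and Ephb3 had log2 fold changes of -0.18 and -0.40, also not past the threshold. Within single kinds 3 members passed, all in upper layer cortical neuron-like nuclei and higher in frozen libraries, namely Epha6, Sema6d and Unc5d (3 of 53 members, 0.476% of all genes). In the other kinds 0 passed, where the share of all genes was 0.118% in Rorb cortical, 0.132% in Abi3bp-led, 0.0678% in hippocampal pyramidal, 0.0973% in Baiap3-led, 0.206% in Drd1 striatal, 0.0114% in oligodendrocyte-like, 0.236% in layer 6 corticothalamic, 0.332% in dentate granule, 0.318% in Adora2a striatal and 0.113% in somatostatin interneuron-like nuclei.

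Other genes of the pathway were counted from a list of co-receptors, intracellular effectors and netrins with their receptors. For the primer in neuron-like nuclei 1 of 4 co-receptors rose and 2 fell, 13 of 29 effectors rose and 1 fell, and 3 of 14 of the netrin list rose and 1 fell, where 11.1% of all genes rose and 9.84% fell. Without the cerebellar neuron-like nuclei these counts were 1 and 2, 15 and 1, and 2 and 0, with no share of all genes beside them. Those with the largest fold changes were Chn2, a Rac regulator downstream of Eph receptors (-0.87 ± 0.08), the adhesion molecule Cntn2 (-0.59 ± 0.07), Ntn4 (-0.57 ± 0.07), Ngef, the ephexin that couples EphA receptors to RhoA (0.53 ± 0.07), and Dcc, the attractive netrin receptor (0.41 ± 0.05). Chn2 was 164 to 270 CPM in the libraries with cerebellar neuron-like nuclei and 90.1 to 111 in the preindexed ones, and without those nuclei its log2 fold change was -0.12 (edgeR adjusted p = 0.387). Ntn4 lost its call likewise (-0.20, edgeR adjusted p = 0.142), while Cntn2 (-0.45), Ngef (0.45) and Dcc (0.32) kept theirs. Over all nuclei 2 of 4 co-receptors fell, 4 of 29 effectors rose and 2 fell, and none of 14 of the netrin list passed with edgeR, where 7.88% of all genes passed in each direction. Chn2 (-0.85), Cntn2 (-0.76), L1cam (-0.36), Ngef (0.49) and Nck2 (0.35) had the largest changes there, and Chn2 lost its call without the kidney tubule-like, unnamed and cerebellar neuron-like nuclei (-0.21, edgeR adjusted p = 0.124). For storage none passed over all nuclei, and in neuron-like nuclei Ntn1 (31.0 to 53.0 frozen, 22.0 to 29.5 fresh, log2 fold change 0.62 ± 0.11, edgeR adjusted p = 0.039) and Chn2 (0.47 ± 0.08, edgeR adjusted p = 0.0332) were higher in frozen libraries, the latter with overlapping groups, where 0.522% of all genes passed. The frozen libraries without the preindex held the highest Chn2 (209 and 270 CPM) and the largest shares of cerebellar neuron-like nuclei (12.6% and 12.8% against 3.9% in fresh ones). Without those nuclei neither passed, with Chn2 at 0.23 (edgeR adjusted p = 0.391) and Ntn1 at 0.65 (edgeR adjusted p = 0.0665).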

How the data were processed

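The authors deposited 1 table of UFI counts per brain library, whole numbers per gene and nucleus barcode. According to the study's methods they trimmed reads with cutadapt, aligned them with STAR, assigned unique reads to whole genes with featureCounts and counted with UMI-tools. The submitters' processing notes name GRCh38 and GRCm38 (mm10), and the strand setting is not given in the sources used here. Tables hold the authors' barcodes, and no further filter and no doublet caller was applied (193 nuclei over 3 times their library's median UFIs were left out as an alternative). The genes and lists were chosen with earlier results of these data known.

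Nuclei were clustered with scanpy 1.11.5 (2000 variable genes without the 64 members, 40 principal components, 10 neighbours, Leiden resolution 0.4). Names needed at least 3 markers and 50% of a list at 2 times the mean, a rule set after the data were seen. Counts summed per library, over all or over neuron-like nuclei, were tested with edgeR 4.0.16 (quasi-likelihood, trimmed-mean scaling, storage and primer as terms, Benjamini-Hochberg adjustment over all genes), after tests on simulated data. Levels (CPM) are relative to the summed total without those scaling factors, which enter the fold changes. Library totals, 8605214 to 42439731 UFIs, set the precision.

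Named genes were every member called for storage or primer, or the 5 with the lowest p where fewer passed, up to 3 members per kind with the highest ratio to the other kinds at 20 CPM or more, the 3 highest members of each role, and up to 5 called pathway genes per comparison. Other members named, and lower levels beside them, were chosen after their values were seen. Alternatives were DESeq2 1.42.0, upper-quartile scaling, no low-count filter, no second factor, a replicate block, other clusterings, nuclei left out and each library left out. Total-UFI scaling, fits within kinds and the interaction were added after seeing the data. Gene spans came from GENCODE vM21 and were found for 95.9% of genes tested in neuron-like nuclei.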

Additional observations from a re-analysis of the deposited data

Results flagged for a closer look

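In frozen library 1 without the preindex, 3 genes stood apart from the other libraries of a group of 4 over all nuclei. Epha4 was 258.68 CPM against 282.297 to 286.885 in the other frozen libraries. Plxna3 was 8.367 against 11.744 to 12.3 in the others without the preindex. Sema3e was 85.878 against 72.162 to 74.317 in the other frozen libraries and 69.675 to 72.162 in the others without the preindex. These were 4 of 104 sets tested, and chance marks about 1 in 20.

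The interaction of storage and preindex (edgeR, added after the data were seen) passed for 21 of 63 members over all nuclei, where 16.4% of all genes passed, and for 11 of 59 in neuron-like nuclei, where 7.12% passed. The fresh preindexed group is 1 library whose spread is taken from the other groups, so these values cannot be told apart from a deviation of that library. Over all nuclei the log2 interaction, positive where the preindex effect was greater in frozen libraries, was 4.443 for Sema3b, 3.869 for Sema3g, 2.811 for Epha1, 2.28 for Ephb4, 1.818 for Plxnb1, 0.82 for Sema5a, 0.799 for Sema4d, 0.768 for Sema3c and 0.708 for Sema4a. Of these, Sema3b, Sema3g, Epha1, Ephb4, Sema4d and Sema4a had their highest level in the kidney tubule-like nuclei, which came from the frozen preindexed libraries, and the part of those nuclei was not tested. Further values were 0.591 for Ephb6, 0.463 for Efnb3, 0.356 for Sema6d and 0.307 for Nrp2. Negative ones were -0.616 for Sema3e, -0.391 for Robo2, -0.364 for Epha6, -0.34 for Sema7a, -0.333 for Sema3a, -0.315 for Epha10, -0.304 for Unc5c and -0.246 for Unc5a. The values of Sema3b, Sema3g, Epha1 and Ephb4 rest on few UFIs, 94, 168, 91 and 326 over all libraries. Sema3b and Sema3g were not among the members tested in neuron-like nuclei.

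In neuron-like nuclei the interaction was 1.583 for Plxnb1, 0.805 for Ephb6, 0.616 for Efnb3, 0.571 for Sema5a and 0.515 for Sema6b. It was 0.497 for Sema6d, 0.462 for Nrp2, 0.432 for Sema4a, 0.333 for Plxnc1, 0.278 for Efna5 and -0.487 for Sema3e. The Col6a3-marked nuclei, where Sema6d was highest, were 1.83% and 1.90% of frozen preindexed libraries and 0% of frozen ones without the preindex. They were 0.516% of the fresh preindexed library and 2.4% and 2.0% of fresh ones without the preindex. The part of the mix of neuron-like kinds in these values was not tested.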

How the results depend on the processing

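Counts below without a share of all genes beside them are descriptions only. The number of members called for storage over all nuclei was 1, and 4 with DESeq2, where 0.933% of all genes passed. It was 11 with no filter on low counts, and 0 to 13 on leaving out a library. It was 0 without the primer term, under total-UFI scaling, without the kidney tubule-like, unnamed and cerebellar neuron-like nuclei, and with the replicate block. In neuron-like nuclei the storage count of 0 was 2 with DESeq2, 10 with no filter and 1 under total-UFI scaling, with 0 to 12 on leaving out a library (12 without the fresh preindexed library). The primer count of 17 over all nuclei was 33 with no filter, and 5 to 33 on leaving out a library. The primer count of 30 in neuron-like nuclei was 18 under total-UFI scaling, where 25.9% of all genes passed. It was 20 to 30 on leaving out a library (20 without frozen preindexed library 1), and from 23 to 34 otherwise. With the replicate block it was 24, and the primer count over all nuclei was 12. Deviations of same-numbered libraries correlated by -0.043 to 0.042. In groups of 2 libraries the deviations mirror each other, so this cannot tell whether same-numbered libraries share a mouse or a run. Within Rorb cortical excitatory neuron-like nuclei the direction turned for Efna5 (storage over all nuclei, 0.20), Sema3a (storage in neuron-like nuclei, -0.094) and, for the primer in neuron-like nuclei, Epha5 (-0.059), Unc5d (-0.15), Efnb2 (-0.022), Plxna4 (-0.06) and Sema3e (-0.21). The cause was not tested. The count of 37 genes highest in a neuron-like kind was 34 to 39 under all its alternatives.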
